A study of Mus musculus with 21 samples.

Results

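Otx2-null mouse cells sorted at day 6 of aggregate culture were compared with and without the cytokines that normally induce germ cell fate. The comparison holds 6 of the 21 bead arrays of the series, 3 arrays of cells grown with cytokines and 3 of cells grown without them, chosen by their sample titles. Cells of both groups came from 1 embryonic stem cell line of the genotype Otx2-/-, carrying the alleles Otx2GFP and Otx2lacZ in place of a functional gene for Otx2, a homeobox factor that the epiblast and the forebrain need. They were first made into epiblast-like cells (EpiLC) with activin and FGF, and then aggregated in medium with 15% knockout serum replacement. The group with cytokines received BMP4, BMP8a, LIF, SCF and EGF and is titled PGCLC, for primordial germ cell-like cells. The group without cytokines stayed in the same basal medium for the same 6 days and is titled EB. From both, cells positive for the surface markers SSEA1 and CD61 were sorted, and 100 ng of total RNA was labelled per array. The comparison asks which RNA levels depend on the cytokines when Otx2 is absent. Wild-type (WT) cells of the line E14Tg2a serve for reference. They are PGCLC of day 6 with 15% knockout serum replacement and EpiLC of day 2 with 1%.

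BMP4 and BMP8a act through receptor kinases that activate SMAD1 and SMAD5, and BMP from tissue next to the epiblast induces primordial germ cells in the mouse embryo. LIF acts through the receptor subunits Lifr and Il6st and the kinase Jak1 on the transcription factor Stat3, which sustains naive pluripotency. SCF, the ligand of the receptor Kit, and EGF activate the RAS-ERK and PI3K-AKT pathways and support germ cell survival and growth.

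On each array 17527 to 18085 probes were detected with cytokines and 17841 to 18175 without, of 45281 in all. The labels do not say that replicates were separate cultures, so p-values measure only the spread between these samples, and the number of arrays limits the precision. Array values are log2 signals after background correction and quantile normalization. Differences are given on the log2 scale as with minus without cytokines, ± the standard error from a limma model (n = 3 arrays per group), and the median standard error was 0.18. A gene passed the test at an adjusted p under 0.05. In sorted bulk cells, fewer cells of a type and less RNA per cell cannot be told apart.

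One array stood apart. Along the first principal component of the 6 arrays, which held 66.9% of their variance, the arrays with cytokines lay at 22.9, 28.8 and 24.7 and those without at -29.2, -29.3 and -17.9. Cytokine-free replicate 3 was thus the array nearest to the cytokine group. Among the genes that passed the test it was the cytokine-free array closest to the mean of the other group in 1014 of 1834 genes (55.3%), against 419 and 401 genes for replicates 1 and 2. Its part in the results was not tested beyond leaving it out. Values without it stand beside many of the results that it moved, and a result given without them may also have moved.

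The labelled genotype and gate could be checked only in part. The Otx2 probe was detected on every array, at 9.37, 9.75 and 9.76 with cytokines and 9.58, 9.15 and 9.30 without, and its position relative to the deletion is unknown. Itgb3, which encodes CD61, was near background and detected on 1 array with cytokines and on 0 without. Fut4, one of the enzymes that can make SSEA1, was detected on 0 arrays with cytokines and on all 3 without, and did not pass the test (adjusted p = 0.406). Its RNA therefore cannot check the SSEA1 gate. The germ cell markers Tfap2c, Prdm14, Nanos3, Dnd1, Kit and Dppa3 were detected on all 6 arrays.

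With cytokines 976 genes rose and 858 fell of 11649 tested, which is 8.38% and 7.37% of all genes and 15.7% together. The rises were larger than the falls. Among genes past the test, 319 rose and 157 fell at least 2-fold, and 83 rose and 6 fell at least 4-fold. The 3 arrays of one group did not overlap those of the other in 1776 of the 1834 genes and in 34.5% of all genes tested. Of the genes that rose, 105 were not detected on any array without cytokines, and of those that fell, 25 were not detected on any array with cytokines. Without cytokine-free replicate 3, 888 genes rose and 757 fell. Of the 6 fits that left out 1 array, the one without cytokine-free replicate 2 gave the fewest falls, 551. The median difference over all genes was -0.01.

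**Figure D1:**
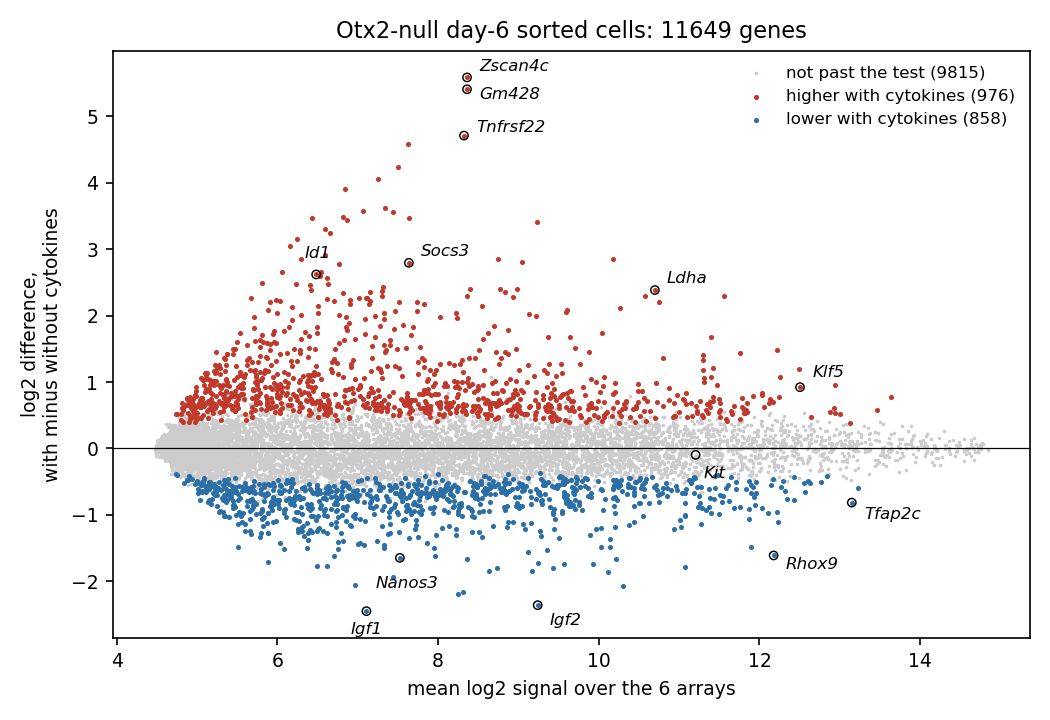
Log2 difference, with minus without cytokines (vertical axis), against the mean log2 signal over the 6 arrays (horizontal axis) for 11649 genes. Each point is 1 gene, red where it passed the test higher with cytokines, blue where lower and grey where it did not pass. Rises reach 5.58 in Zscan4c, while the lowest value is -2.45 in Igf1.

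Several targets of LIF rose with cytokines. Of 18 tested genes on a list of LIF and STAT3 targets, 6 rose and 2 fell, with a median of 0.07. That is 44.4% of the list, against 15.7% of all genes. Socs3, the feedback inhibitor of JAK kinases, had log2 signals of 8.79, 9.25 and 9.06 with cytokines, against 6.06, 6.50 and 6.16 without. All arrays with cytokines lay far above all arrays without, and the rise was 2.79 ± 0.19 (adjusted p = 6.45e-10). Its level with cytokines was close to the 8.85 measured in WT PGCLC.

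Klf4, a Krüppel-like factor of naive pluripotency downstream of Stat3, had 8.31, 8.24 and 8.21 with cytokines, against 5.70, 6.35 and 5.90 without. The groups were well separated, at 2.27 ± 0.19 (adjusted p = 8.91e-09), and 2 further probes of the gene also rose, by 1.87 and 1.17. Gbx2, a homeobox gene that acts downstream of LIF in mouse stem cells, had 9.90, 9.12 and 9.76 with cytokines, against 6.82, 7.11 and 7.65 without. Stat3 itself, which is among its own targets, had 8.50, 8.70 and 8.26 with cytokines, against 6.48, 6.56 and 6.85 without. Neither gene's groups overlapped, and the rises were 2.40 ± 0.24 for Gbx2 and 1.86 ± 0.23 for Stat3. Bcl3, an IκB-family cofactor, rose by 1.56 ± 0.14 and Klf5, another Krüppel-like factor of naive cells, by 0.92 ± 0.18. The list's 2 falls were Pramel13 (-0.76 ± 0.18), which lost its call without cytokine replicate 1 (-0.59), and Cebpb, a bZIP factor of inflammation (-0.62 ± 0.21, adjusted p = 0.0459). The call for Cebpb was lost under 8 of 15 alternatives, the authors' own normalization among them. Of 11 genes for ligands, receptors and JAK-STAT components, 2 rose and 1 fell, or 27.3% of the list against 15.7% of all genes. Besides Stat3 the rise was Jak1, the kinase of the LIF receptor (0.89 ± 0.16), and the fall was Jak2, which passed at -0.59 ± 0.17 but lost its call under 4 of 15 alternatives, one of them without cytokine-free replicate 3 (-0.42). The receptor genes Lifr (0.20 ± 0.17) and Il6st (-0.45 ± 0.25) did not pass. Of 2 ligand genes related to LIF, chosen after their values were seen, Ctf1, cardiotrophin 1, fell by 1.21 and Ebi3, a subunit of interleukin 27 and 35, fell by 1.52.

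Promoter sequences are shown for Socs3, the target with the smallest p, and for Id2 and Id3, which share the BMP response with Id1 in other cells. They run from 250 bases before to 50 bases after the annotated start in RefSeq for GRCm38.p6, at chr11:117969317-117969616 (minus strand), chr12:25096043-25096342 (minus strand) and chr4:136143572-136143871 (plus strand).
Socs3: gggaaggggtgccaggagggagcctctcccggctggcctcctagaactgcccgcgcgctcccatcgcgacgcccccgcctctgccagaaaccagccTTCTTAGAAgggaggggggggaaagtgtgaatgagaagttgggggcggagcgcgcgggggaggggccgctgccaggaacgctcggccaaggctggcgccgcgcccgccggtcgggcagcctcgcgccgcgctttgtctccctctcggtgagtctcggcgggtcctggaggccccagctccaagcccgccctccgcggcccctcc
Id2: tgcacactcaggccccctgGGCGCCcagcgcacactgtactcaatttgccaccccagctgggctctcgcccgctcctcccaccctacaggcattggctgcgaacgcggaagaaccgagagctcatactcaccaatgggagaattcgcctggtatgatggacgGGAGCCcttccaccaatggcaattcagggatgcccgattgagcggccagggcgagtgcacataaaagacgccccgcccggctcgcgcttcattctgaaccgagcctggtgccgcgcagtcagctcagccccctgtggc
Id3: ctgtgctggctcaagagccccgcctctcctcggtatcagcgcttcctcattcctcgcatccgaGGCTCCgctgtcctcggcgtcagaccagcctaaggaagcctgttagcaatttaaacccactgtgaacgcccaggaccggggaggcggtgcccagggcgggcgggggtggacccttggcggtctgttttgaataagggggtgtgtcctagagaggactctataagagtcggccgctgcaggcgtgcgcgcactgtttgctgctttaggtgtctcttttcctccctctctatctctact

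The capitals mark, in Socs3, a match to the STAT motif TTCNNNGAA, and in Id2 and Id3 matches to GGCGCC or GGAGCC, the SMAD1 and SMAD5 motifs of BMP response elements, with GGCTCC the reverse of the second. Matches were sought on both strands, TTCNNNGAA and GGCGCC read the same way on both, and none of the marked matches overlap. Only the STAT motif was marked in Socs3 and only the SMAD motifs in Id2 and Id3. The Socs3 window also holds GGCGCC and GGAGCC, left in small letters, and the windows of Id2 and Id3 hold no TTCNNNGAA. TTCNNNGAA occurs in 8.30% of all 32851 promoter windows, GGCGCC in 11.9% and GGAGCC in 30.8%. Among the 9410 tested genes with a window the shares were 8.06%, 23.6% and 45.9%. GGCGCC was present for 21.6% of the genes that rose and GGAGCC for 45.5%, so the marked letters in Id2 and Id3 are common. Among genes with a window, TTCNNNGAA was present in 76 of 759 genes that rose with cytokines (10.0%) and 52 of 702 that fell (7.41%). Of 14 LIF and STAT3 targets with a window, 2 held it, and the windows of Klf4, Bcl3, Stat3 and Gbx2 did not. A match is a description of letters in the window and not of binding.

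Among BMP targets Id1 rose and most others did not pass. Of 11 tested BMP and SMAD targets 2 rose and 2 fell, with a median of -0.07. That is 36.4% of the list, against 15.7% of all genes. Id1, an inhibitor of bHLH factors and a direct SMAD target, had 7.84, 7.82 and 7.72 with cytokines, against 5.01, 4.92 and 5.60 without. The arrays with cytokines lay close together and clear of the others, and the rise was 2.62 ± 0.24 (adjusted p = 5.29e-08). In WT PGCLC, which had the same cytokines, the Id1 level was higher still at 9.62.

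The related genes did not pass. Id2 had 5.57, 5.46 and 5.21 with cytokines, against 4.96, 4.98 and 4.95 without, a difference of 0.45 ± 0.19 (adjusted p = 0.127). Its groups did not overlap but lay close together near background. Id3 overlapped fully, at 0.14 ± 0.26. Smad6, an inhibitory SMAD induced by BMP in many cells, was at -0.41 ± 0.15 (adjusted p = 0.0727) and passed without cytokine-free replicate 3 (-0.52). Opposite to Id1, the bHLH repressor gene Hey1 had 8.47, 8.22 and 8.04 with cytokines, against 10.25, 10.21 and 9.81 without, and fell by 1.85. Gata2, a zinc-finger factor of blood and trophoblast, also fell by 1.26, with no overlap between the groups of either gene. Of 16 tested ligands, receptors and antagonists, 2 rose and 0 fell, against 8.38% and 7.37% of all genes. These were Chrd, which encodes the BMP antagonist chordin (1.52 ± 0.22), and Bmp4 itself (0.87 ± 0.21), whose second probe was at 0.22 and did not pass. Bmpr1a (0.14 ± 0.27), Smad1 (0.18 ± 0.18) and Smad5 (-0.24 ± 0.19) did not pass.

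**Figure D2:**
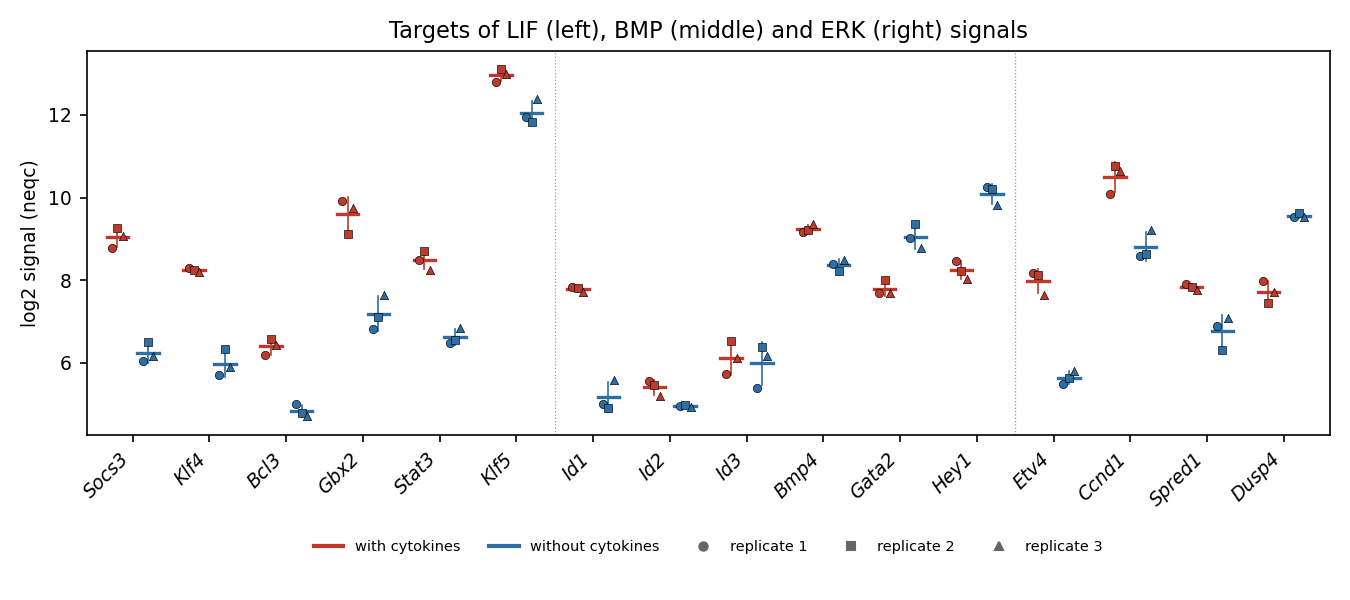
Log2 signal (vertical axis) of 16 target genes of the LIF, BMP and ERK pathways on each array. Red is with and blue is without cytokines, symbols mark the replicate number, horizontal bars are means and vertical bars are SD (n = 3). Socs3, Klf4, Gbx2, Id1 and Etv4 lie higher with cytokines on every array, Hey1 and Dusp4 lie lower on every array, and Id3 overlaps.

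Of the genes of SCF and EGF signalling itself 12.5% passed the test, near the 15.7% of all genes. Of the ERK feedback genes 46.7% passed. Of 8 ligand, receptor and adaptor genes, 1 rose (2 without cytokine-free replicate 3), Erbb2, a receptor of the EGF family (0.60 ± 0.18, adjusted p = 0.0262), which was at 0.02 in the authors' normalized table and lost its call under 6 of 15 alternatives. Kit, the receptor for SCF, had 11.09, 11.35 and 11.03 with cytokines, against 11.35, 10.92 and 11.50 without. Its groups overlapped, at -0.10 ± 0.18. Of 15 ERK feedback genes 5 rose and 2 fell, with a median of 0.40, and 1 fell without cytokine-free replicate 3.

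Etv4, an ETS factor induced by ERK, had 8.18, 8.13 and 7.64 with cytokines, against 5.49, 5.64 and 5.80 without, and rose by 2.34 ± 0.15 (adjusted p = 6.45e-10). Ccnd1, cyclin D1 of the G1 phase, had 10.08, 10.75 and 10.63 with cytokines, against 8.59, 8.63 and 9.21 without, and rose by 1.68 ± 0.19. Both genes were higher on every array with cytokines. Spred1, which restrains RAS signalling, rose by 1.07 and Spry4, a Sprouty inhibitor, by 0.56, although Spry4 was at 0.02 in the authors' normalized table and lost its call under 7 of 15 alternatives. In the other direction, Dusp4, a nuclear phosphatase that inactivates ERK, had 7.98, 7.44 and 7.71 with cytokines, against 9.52, 9.62 and 9.54 without. The groups were clearly apart, at -1.85 ± 0.18, and 2 of 3 further probes also passed as lower. Errfi1, an inhibitor of EGF receptors, was at -0.45 ± 0.15 and lost its call under 6 of 15 alternatives.

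The FOXO and PI3K response genes, which insulin and growth factor signals repress in many cells, passed in both directions. Of 16 tested, 3 were higher and 3 lower, or 3 higher and 1 lower without cytokine-free replicate 3. With all arrays 37.5% passed, against 15.7% of all genes. Txnip, a thioredoxin-binding protein that limits glucose uptake, had 11.89, 11.71 and 11.95 with cytokines, against 8.84, 9.32 and 10.80 without. Cytokine-free replicate 3 lay nearest to the cytokine group here, and the rise was 2.20 ± 0.28, or 2.77 without that array. Bcl6, a transcriptional repressor, rose by 1.15 and the stress gene Sesn1 by 0.87. Pik3ip1, an inhibitor of PI3K, fell by 1.02 and the zinc-finger gene Klf6 by 0.60, a call lost without cytokine replicate 1 (-0.53) or cytokine-free replicate 3 (-0.46). Sgk1, a kinase of the PI3K branch chosen after its values were seen, had 12.59, 12.92 and 12.62 with cytokines, against 9.87, 10.38 and 10.99 without, and rose by 2.30 ± 0.21.

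Some naive pluripotency genes rose, while Esrrb, Nanog, Pou5f1 and Sox2 did not pass the test. Of 17 genes 6 rose and 1 fell, with a median of 0.14. That is 41.2% of the list, against 15.7% of all genes. Besides Klf4 and Klf5, the rises were Jam2, an adhesion molecule (1.95 ± 0.20), Tbx3, a T-box factor (1.27 ± 0.20), Zfp42, known as Rex1 (0.83 ± 0.17), and Fbxo15 (0.70 ± 0.17). Esrrb, a nuclear receptor of naive cells, had 13.95, 13.95 and 14.02 with cytokines, against 13.88, 13.99 and 13.98 without. The groups overlapped at a bright signal, at 0.03 ± 0.15. Nanog (0.14 ± 0.19), Pou5f1 (-0.26 ± 0.14), Sox2 (0.22 ± 0.21), Klf2 (-0.14 ± 0.15) and Tfcp2l1 (0.34 ± 0.15) did not pass either. Of 19 formative and primed epiblast genes, 4 rose and 3 fell (2 without cytokine-free replicate 3). With all arrays 36.8% of the list passed. The rises were Etv4, Sox4, an SRY-box factor (1.52 ± 0.19, a call lost in the authors' normalized table), Tead2, a partner of YAP (0.94 ± 0.19), and Sall2 (0.73 ± 0.19), whose call was lost without replicate 2 with cytokines (0.51) or without them (0.62). The falls were Dnmt3l, the DNA methylation cofactor (-1.06 ± 0.20), the claudin gene Cldn6 (-1.02 ± 0.18) and Fgf5, which lay near background, was at -0.02 in the authors' normalized table and lost its call without cytokine-free replicate 3 (-0.45). Dnmt3b was at -0.02 ± 0.17 and Pou3f1 at 0.15 ± 0.24.

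Early germ cell genes were lower with cytokines more often than higher. Of 23 tested, 10 fell and 1 rose, with a median of -0.25 against -0.01 for all genes. Together they are 47.8% of the list, against 15.7% of all genes. Without cytokine-free replicate 3, 9 fell and 1 rose. Nanos3, an RNA-binding protein that protects germ cells from death, had 7.18, 6.34 and 6.58 with cytokines, against 8.57, 7.92 and 8.56 without. Every array without cytokines lay above every array with them, and the difference was -1.65 ± 0.20 (adjusted p = 1.92e-06). The mean in WT PGCLC was 8.15, nearer to the group without cytokines.

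Tfap2c, an AP2 factor that acts with Blimp1 and Prdm14 in germ cell specification, had 12.93, 12.44 and 12.86 with cytokines, against 13.50, 13.43 and 13.75 without. The shift was small but the groups did not overlap, at -0.82 ± 0.16 (adjusted p = 7.98e-04), and 2 further probes fell by 1.32 and 1.22. The gene Dppa3, which protects maternal DNA methylation in the zygote, had 10.11, 9.42 and 9.62 with cytokines, against 10.49, 10.87 and 10.69 without, at -0.97 ± 0.25 (adjusted p = 8.04e-03). Its call was lost without cytokine replicate 2 (-0.82) and in the authors' normalized table. Dnd1, an RNA-binding protein that works with Nanos proteins in mouse germ cells, was at -0.67 ± 0.17 and lost its call without cytokine-free replicate 2 (-0.56). Prdm14, a regulator of germ cell specification, had 7.69, 7.41 and 7.62 with cytokines, against 7.45, 7.68 and 7.89 without. Like Kit it overlapped, at -0.10 ± 0.17.

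The homeobox genes Rhox6 and Rhox9 of the X chromosome, both active in germ cells, were among the larger falls. Rhox6 had 8.74, 8.60 and 8.73 with cytokines, against 10.23, 10.64 and 10.44 without, and Rhox9 had 11.64, 11.12 and 11.35 with cytokines, against 12.83, 13.18 and 12.93 without. Both were lower on every array with cytokines, at -1.74 ± 0.28 and -1.61 ± 0.28, and in WT PGCLC they averaged 9.08 and 11.40, nearer to the group with cytokines. The call for Rhox9 was lost in the authors' normalized table, where it was at -1.65. Of 7 Rhox genes, counted by name after their values were seen, 2 rose and 2 fell, at a median of -0.01. Over all genes 8.38% rose and 7.37% fell. The Rhox rises were Rhox13 (1.74) and Rhox10, both outside the list, and Rhox10 lost its call under 1 of 15 alternatives. Of 5 Tudor-domain genes whose symbols start with Tdrd, counted after their values were seen, 3 fell, against 7.37% of all genes. These were Tdrd5 (-1.27 ± 0.20), Tdrd12 (-1.31 ± 0.22) and Tdrd7 (-0.91 ± 0.15), while Tdrd1 and Tdrd3 did not pass. Rnf17, a Tudor-domain gene outside this count, rose by 0.60 but lost its call under 6 of 15 alternatives. Dppa2, a chromatin factor of pluripotent and germ cells, was the list's 1 rise, at 1.12 ± 0.25.

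Late germ cell genes were higher more often than lower, but only the call for Dazl held in the authors' normalized table. Of 20 listed, 12 had a kept probe, and 5 of these rose and 0 fell, with a median of 0.44. That is 41.7%, against 15.7% of all genes, and 4 rose without cytokine-free replicate 3. Genes not detected without cytokines entered the test through other groups and could hardly fall. Dazl, an RNA-binding protein that licenses gonadal germ cells, had 8.12, 8.62 and 8.74 with cytokines, against 6.17, 6.46 and 6.66 without, and rose by 2.06 ± 0.20 (adjusted p = 1.30e-07). All arrays with cytokines were higher, and WT PGCLC averaged 7.76. Asz1, which takes part in piRNA production, was not detected on any array without cytokines. Set against the lowest detected signal there it was at least 2.63-fold higher with cytokines (adjusted p = 3.93e-05), although it was at 0.08 in the authors' normalized table. The other rises, in Stra8, a meiosis gene not detected without cytokines (at least 1.38-fold higher), Taf7l, a testis transcription factor subunit (0.69), and Rnf17, a Tudor-domain gene (0.60), were at dim signals and also lost their calls in that table. Stra8 and Rnf17 also lost them under 6 and 5 of the other alternatives.

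**Figure D3:**
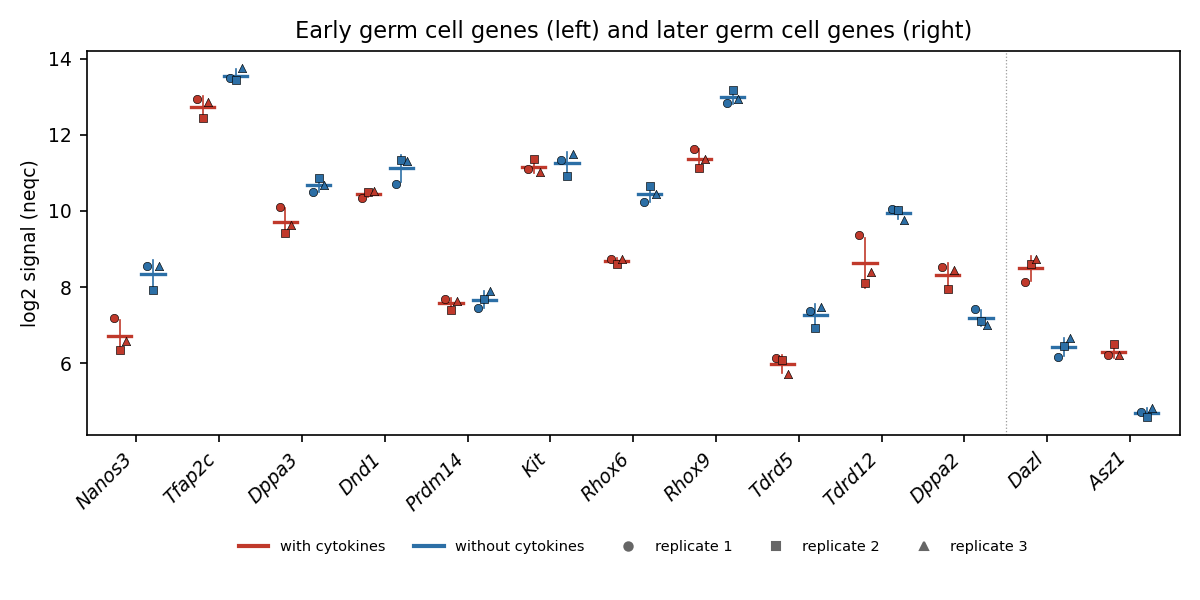
Log2 signal (vertical axis) of 11 early and 2 late germ cell genes on each array, with cytokines in red and without in blue. Symbols mark the replicate number, horizontal bars are means and vertical bars are SD (n = 3). Nanos3, Tfap2c, Rhox6 and Rhox9 lie lower on every array with cytokines, Dazl and Asz1 lie higher, and Prdm14 and Kit overlap.

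The largest rises were genes known from the mouse embryo at the 2-cell stage and from a rare state of embryonic stem cells that passes through a similar programme. Zscan4c, a SCAN and zinc-finger protein of that state, had 10.70, 11.09 and 11.67 with cytokines, against 4.74, 4.62 and 7.34 without. It was detected on all 3 arrays with cytokines and only on replicate 3 without. The rise was 5.58 ± 0.47 (adjusted p = 1.27e-08). Without that array no cytokine-free signal was detected, and the level with cytokines was at least 75.9-fold higher than the lowest detected signal. A second, dim probe of the gene rose by 0.66.

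Others followed the same pattern. Gm428 had 10.71, 11.25 and 11.24 with cytokines, against 4.62, 4.86 and 7.49 without, and Tmem92 had 9.33, 9.70 and 9.83 with cytokines, against 4.64, 4.61 and 6.89 without. In both, cytokine-free replicate 3 was the only array of its group with a detected signal, and the rises were 5.41 ± 0.47 and 4.24 ± 0.38. Without it, Gm428 was at least 71.4-fold and Tmem92 at least 26.2-fold higher with cytokines. Tcstv1 and Tcstv3, genes of a 2-cell-specific family, rose by 3.48 ± 0.26 and 3.24 ± 0.33. Of 6 tested genes on the list of the 2-cell stage 4 rose and 0 fell, with a median of 3.36, and 4 rose without cytokine-free replicate 3. That is 66.7% of a short list, against 15.7% of all genes. WT PGCLC lay between the groups for Zscan4c (8.42), Gm428 (9.99), Tmem92 (8.10) and Tcstv1 (6.88). Since these families hold near-identical copies, a probe may read more than 1 gene.

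The Pramel family, named after a human tumour antigen and found in clusters of many copies, rose widely. Counted by name after the values were seen, 10 of 16 members rose and 1 fell, with a median of 0.86. Over all genes 8.38% rose and 7.37% fell. Pramel20 had 8.93, 9.08 and 9.83 with cytokines, against 4.52, 4.60 and 6.54 without, and rose by 4.06 ± 0.41. Pramel37, Pramel31 and Pramel16 rose by 3.62, 3.58 and 3.44. In Pramel20, Pramel31 and Pramel16 too, cytokine-free replicate 3 was the only array of its group with a detected signal, and without it Pramel20 was at least 20.7-fold higher with cytokines. Other large rises were Tnfrsf22, a decoy receptor for TRAIL (4.71 ± 0.34, with further probes at 1.09 and 0.05), AF067061 (4.58, or at least 32.2-fold without cytokine-free replicate 3), Gm5662 (3.90, second probe 0.23), the unconventional myosin gene Myo1f (3.56), Atp2a3, a calcium pump (3.47), and Xlr4a of the X chromosome (3.41).

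**Figure D4:**
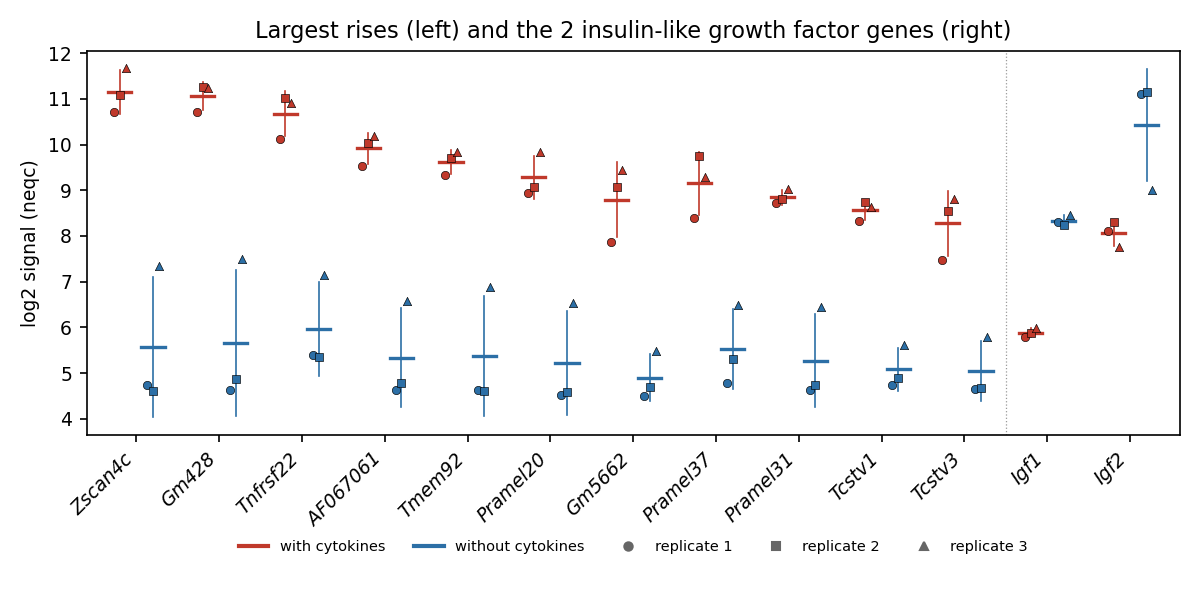
Log2 signal (vertical axis) on each array of 11 genes with large rises and of Igf1 and Igf2, with cytokines in red and without in blue. Symbols mark the replicate number, horizontal bars are means and vertical bars are SD (n = 3). In the 11 genes cytokine-free replicate 3 (triangle) lies above replicates 1 and 2 and below every array with cytokines.

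Both insulin-like growth factor genes led the falls. Igf1 had 5.79, 5.88 and 5.98 with cytokines, against 8.30, 8.24 and 8.47 without, at -2.45 ± 0.19 (adjusted p = 4.45e-09), and a second probe was at -1.90. Its arrays were tight in both groups, and WT PGCLC averaged 5.27, near the group with cytokines. Igf2, an imprinted growth factor, had 8.11, 8.31 and 7.76 with cytokines, against 11.10, 11.15 and 9.01 without.

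Cytokine-free replicate 3 again lay between, and the difference for Igf2 was -2.36 ± 0.34, or -3.07 without that array. In WT PGCLC the Igf2 level was 14.19, above both groups. The receptor genes Igf1r (0.22 ± 0.20) and Igf2r (-0.50 ± 0.26) did not pass, and Igfbp7, a binding protein chosen after its values were seen, rose by 2.04 ± 0.24. Among 13 imprinted genes 1 rose and 3 fell (2 without cytokine-free replicate 3), with a median of -0.37. With all arrays that is 30.8% of the list, against 15.7% of all genes. Cdkn1c, an inhibitor of cyclin-dependent kinases, had 8.02, 9.11 and 8.48 with cytokines, against 10.29, 10.44 and 10.27 without, and fell by 1.80. Ndn, the gene for necdin, fell by 0.63, a call lost in 4 of the 6 fits that left out 1 array (-0.63 to -0.49). Grb10, an adaptor that dampens insulin and IGF receptors, was the list's 1 rise at 2.36 ± 0.22, with a second probe at 0.43 that did not pass.

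Several genes known from epithelia were lower and several of the cytoskeleton and matrix higher, most of them picked after their values were seen and not from a list. On a list that holds cytoskeletal genes, of smooth muscle, CCN and YAP targets, 0 of 14 rose and 2 fell, with a median of -0.16. That is 14.3% of the list, near the 15.7% of all genes. The falls were Cnn2 (-0.83 ± 0.19), which lost its call under 1 of 15 alternatives, and Axl (-0.57 ± 0.19), which lost it under 8. Esrp1, an epithelial splicing regulator, had 11.29, 11.02 and 11.13 with cytokines, against 12.55, 12.58 and 12.77 without, and fell by 1.49. Its relative Esrp2 fell by 1.93, the transcription factor Ovol1 by 1.28, and Rab25, a GTPase of epithelial recycling, by 1.15. Groups did not overlap for any of these 4 genes. By name, 5 of 14 claudin genes fell and 0 rose, against 7.37% and 8.38% of all genes, with a median of -0.06. Among the falls were Cldn3 (-1.33), Cldn5 (-1.27) and Cldn6 (-1.02). Cdh1, which encodes E-cadherin, had 9.43, 9.35 and 9.69 with cytokines, against 9.53, 9.38 and 9.58 without, and did not pass (adjusted p = 0.994). Among the keratin genes Krt7 fell (-0.93), a call lost in the authors' normalized table, while Krt8 (-0.42), Krt18 (-0.55) and Krt19 (-0.07) did not pass. Without cytokine-free replicate 3, Krt8 (-0.92) and Krt18 (-0.76) passed as lower.

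On the list of extracellular matrix and adhesion genes 6 of 19 rose (5 without cytokine-free replicate 3) and 2 fell, with a median of 0.10. With all arrays that is 42.1% of the list, against 15.7% of all genes. Vim, the intermediate filament vimentin, had 7.78, 8.07 and 7.87 with cytokines, against 5.09, 5.24 and 5.70 without, and rose by 2.56 ± 0.18 (adjusted p = 1.15e-09). The groups were far apart. Itga5, the fibronectin receptor subunit, rose by 1.49 (a call lost in the authors' normalized table), Nid1, a basement membrane protein, by 0.99 and, chosen after its values were seen, Lmna, the nuclear lamin A gene, by 1.64. Emp1, chosen likewise, a membrane protein, was not detected without cytokines and was at least 6.84-fold higher with them. Other large falls were Car12, a carbonic anhydrase (-2.20), Pdzk1, a scaffold protein (-2.16), Lgals1, galectin 1 (-1.79), and Pdlim4 (-2.07, second probe -0.19).

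Among metabolic genes a few members of each list passed the test. Ldha, lactate dehydrogenase A, had 11.34, 12.42 and 11.91 with cytokines, against 9.03, 9.54 and 9.95 without, and rose by 2.38 ± 0.22 (adjusted p = 4.56e-08). It was higher on every array, and of 22 glycolysis and hypoxia genes 3 rose and 2 fell, or 22.7% against 15.7% of all genes. The others were Eno2, a neuronal enolase (0.90), and Pfkp, a phosphofructokinase (0.89), with P4ha1, a collagen hydroxylase (-0.91), and Ddit4, an inhibitor of mTORC1 (-1.10), lower. Amino acid and ATF4 response genes rose in 7 of 19 cases and fell in 2, with a median of 0.28, or 47.4% past the test. Without cytokine-free replicate 3, 2 rose and 2 fell. Psat1, of serine synthesis, was at 0.74 ± 0.18, a call lost without cytokine replicate 2 (0.46), and Shmt2, of mitochondrial folate metabolism, at 0.69 ± 0.18. In the authors' normalized table the calls for Eno2, Pfkp and Ddit4 were lost. Calls were also lost for Pfkp without cytokine-free replicate 1 (0.63) and for Ddit4 without cytokine replicate 1 (-0.85). Of 14 cholesterol synthesis genes, 3 fell (2 without cytokine-free replicate 3) and 0 rose, or 21.4% of the list with all arrays. Of 17 oxidative phosphorylation genes 2 rose (1 without cytokine-free replicate 3) and 0 fell. The latter list passed in 11.8%, under the 15.7% of all genes. Among 13 p53 targets 2 rose and 0 fell, and among 13 immediate early and dissociation stress genes 0 rose and 2 fell. Both lists passed in 15.4%, near the 15.7% of all genes. The falls were Jun (-0.63) and Zfp36 (-0.59) of the immediate early list. The call for Jun was lost without cytokine-free replicate 2 (-0.45), and that for Zfp36 without replicate 1 with cytokines (-0.52) or without them (-0.55), and neither gene passed in the authors' normalized table. Without cytokine-free replicate 3, Egr1 on the same list passed as higher (1.44).

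The genes for cyclin D1 and D2 rose with cytokines, and Ccnd3, for cyclin D3, did not pass (0.16 ± 0.14). Of 23 G1 and DNA replication genes, 4 rose and 2 fell, or 26.1% of the list against 15.7% of all genes. Besides Ccnd1, Ccnd2, cyclin D2, had 6.68, 6.29 and 6.24 with cytokines, against 4.75, 4.73 and 5.84 without, and rose by 1.30 ± 0.23. It was detected without cytokines on replicate 3 alone, and without that array it was at least 2.82-fold higher. Cdk2 rose by 0.59 and Gins2, of the replicative helicase, by 0.85, while Cdkn1c fell as above and Cdk4 fell by 0.58, a call lost without cytokine replicate 1 (-0.48) or cytokine-free replicate 2 (-0.51). Of 12 mitosis genes 0 passed in either direction, at a median of 0.22, and Birc5 (0.32, adjusted p = 0.0987) and Bub1b (0.46, adjusted p = 0.0901) passed when arrays were weighted, and Bub1b also without cytokine-free replicate 3 (0.59). Among 17 DNA methylation and chromatin genes 3 rose and 1 fell (23.5% of the list), or 1 and 1 without cytokine-free replicate 3. Uhrf1, which guides maintenance methylation, was at 0.69 ± 0.19, a call lost without cytokine replicate 3 (0.62) or cytokine-free replicate 2 (0.59), and Dnmt3l was the fall.

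A few marker genes of other lineages passed the test, and several were not detected in either group. Of 17 primitive streak and mesoderm genes 4 rose and 0 fell, or 23.5% against 15.7% of all genes, with a median of 0.00. These were Gsc, a homeobox gene of the organizer (1.03), Wnt3a (0.79), Meis1 (0.74) and Cdx1 (0.58), all at or under a log2 signal of 6.84. In the authors' normalized table Gsc, Meis1 and Cdx1 did not pass, and Wnt3a passed at 0.02. The call for Cdx1 was also lost without cytokine-free replicate 3 (0.44). Of 12 endoderm genes 3 rose, Lama1 (1.45) and Col4a1 (1.24, a call lost in the authors' normalized table), which encode basement membrane proteins, and Sparc (0.64), whose call was lost under 8 of 15 alternatives. Of 14 trophoblast and amnion genes 1 rose, Ets2 (0.63), and 1 fell, Krt7 (-0.93), whose call was lost in the authors' normalized table. That is 14.3% of the list, near the 15.7% of all genes. Without cytokine-free replicate 3, 3 fell, with Krt8 (-0.92) and Krt18 (-0.76) as the added genes. Of 4 neural and 10 blood and endothelial genes, 0 passed. Gata4, Cdx2, Gata3, Hbb-y and Tagln were not detected on any of the 6 arrays. Wnt7b fell by 1.37 and Tcf7l1, a repressor of Wnt targets, was at 0.59 ± 0.18 among 13 Wnt genes. Together they are 15.4% of the list, near the 15.7% of all genes. The call for Tcf7l1 was lost under 4 of 15 alternatives, one of them without cytokine-free replicate 3 (0.45). In that fit Notum of the same list passed as higher (1.19).

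**Figure D5:**
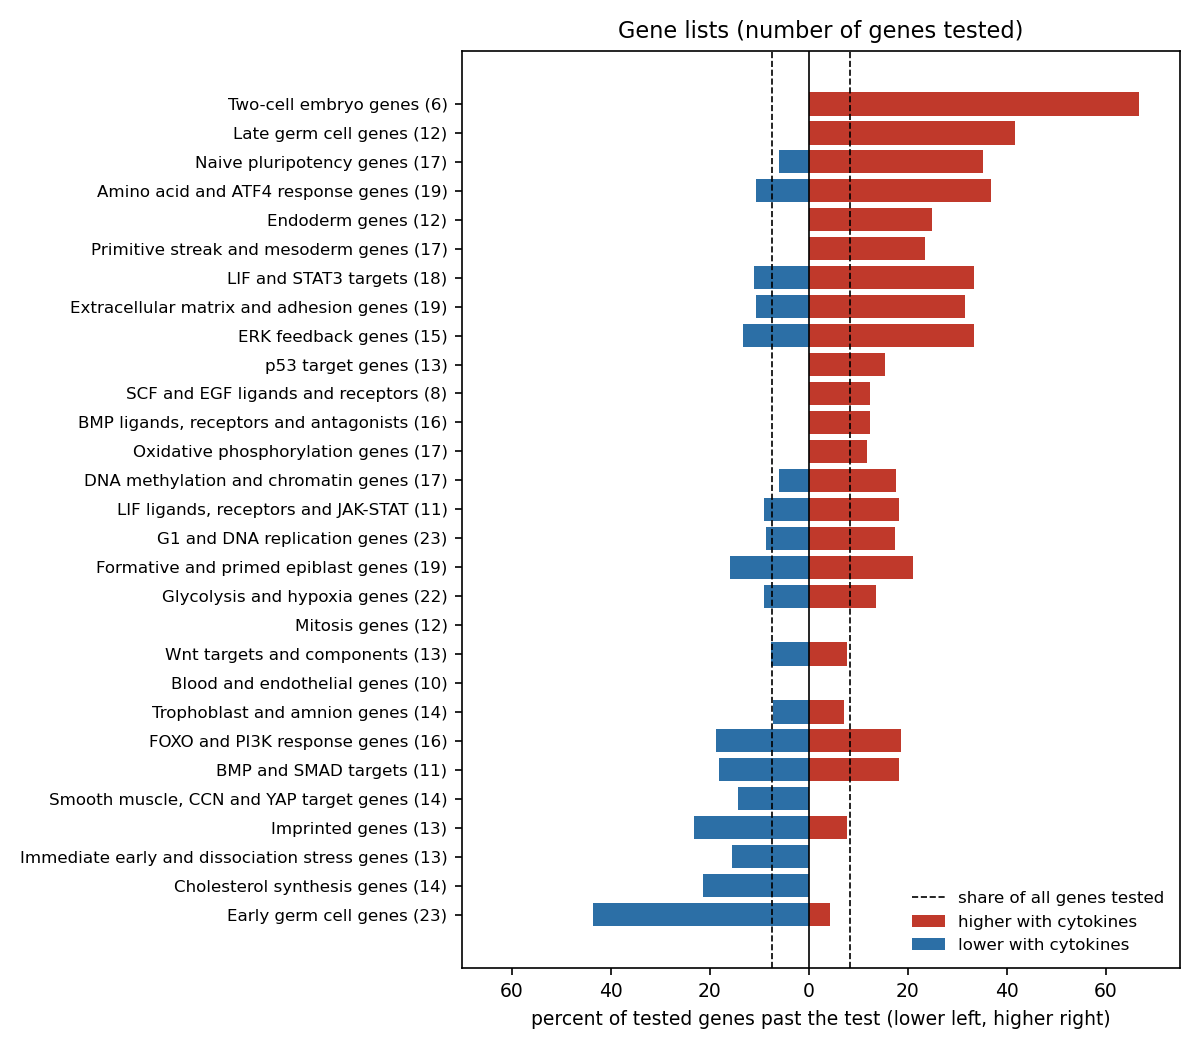
Percent of each list's tested genes that passed the test higher (red, right) or lower (blue, left) with cytokines, for lists with 6 or more tested genes, whose number stands after the name. Dashed lines mark the shares over all genes, 8.38% higher and 7.37% lower. Early germ cell genes have the longest bar to the left and 2-cell genes the longest to the right.

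WT PGCLC, made with the same cytokines from the line E14Tg2a, served to place the groups. Their mean was nearer to Otx2-null cells with cytokines than to those without in 569 of 976 genes that rose (58.3%) and 477 of 858 that fell (55.6%), against 6100 of 11649 of all genes (52.4%). Induction in WT cells (PGCLC minus EpiLC), which shares no array with the cytokine comparison, changed 62.8% of genes, with 35.4% higher and 27.4% lower. WT PGCLC and WT EpiLC also differ in day (6 against 2) and in knockout serum replacement (15% against 1%), so their contrast is not of cytokines alone. Of the genes raised by cytokines, 445 (45.6%) rose and 303 (31.05%) fell in WT induction, which is 10.8% of the WT rises and 9.50% of the WT falls. Of the genes lowered by cytokines, 493 (57.5%) rose and 168 (19.6%) fell in WT induction, which is 11.9% of the WT rises and 5.27% of the WT falls.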

How the data were processed

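RNA was measured on 21 single-colour Illumina bead arrays in 7 groups of 3, of which 6 arrays enter the comparison. The deposited probe intensities had been background-subtracted and equalized between arrays by the authors before deposit, per the values below 0 and nearly equal value sets of the columns. Each intensity comes with a deposited detection p-value, per the file headers, which measures it against background. A second table by the authors holds normalized log2 values made with limma, per the labels, and dim probes lie near its floor, so small differences there are compressed. In the intensity table the column of replicate 2 with cytokines stood in another probe order (rank correlation 0.00547 with its normalized column). Its values were sorted back into place by matching ranks with that column.

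The neqc function of limma 3.58.1 (R 4.3.3) normalized the intensities (offset 16, quantile normalization, log2). Probes with a detection p under 0.05 on at least 3 arrays were kept, and the brightest probe stood for a gene. A single gene was named by 34885 probes, several genes by 18 and no gene by 10378. Of the unnamed probes 3491 were kept and 371 passed the test. The 7 groups were fitted together with lmFit and eBayes, with two-sided p-values adjusted by Benjamini-Hochberg over all 11649 genes at a threshold of 0.05. For genes undetected on all 3 arrays of a group, the bound took each array's dimmest detected probe in place of any lower signal. In simulated data, 67, 67 and 66 of 11649 genes were changed by 0.5, 1 and 2 on the log2 scale. Of these, 25.4%, 80.6% and 100% were called, with 6 false calls among 143. Far fewer genes were changed there than passed in the data, so these shares do not carry over to the comparison.

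The members, the 30 gene lists (544 genes, 508 with a named probe) and the tests were chosen with earlier results of these data known. Named genes are the ligand and receptor genes, up to 6 genes with the smallest p per other list and members against its median, a panel of regulators, and the 15 largest rises and falls. Genes named outside this rule were chosen after their values were seen. Promoter windows came from RefSeq, and 9410 tested genes had one. Id1 and Hey1 windows, further marker genes without a kept probe, and Prdm1, which encodes Blimp1, were not analysed here. Alternatives were the authors' normalized table, another background, other filters, other probes per gene, only the 6 arrays, a replicate block, array weights, another model of spread and leaving out each array. Tables and figures were made with Python 3.11.15, pandas 2.3.3, numpy 2.4.6, matplotlib 3.10.9 and the R package called data.table (version 1.17.8).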

Additional observations from a re-analysis of the deposited data

How the results depend on the processing

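The count of genes past the test (1834) ran from 1497 with the authors' normalized table to 2454 with array weights, and the count of rises (976) from 741 to 1256 and of falls (858) from 726 to 1198 over the same 9 alternatives that kept all arrays. Leaving out 1 array gave 1270 to 1645 genes, of which 718 to 888 rose and 551 to 757 fell, and the lowest number of falls came without cytokine-free replicate 2. The WT induction count (7319) ran from 6044 to 7860, and from 6846 to 7093 with 1 array left out. No called named gene changed direction under any alternative run. Of 154 called named genes, 98 passed under every one of the 15 alternatives, and 39 lost their call in the authors' normalized table, where dim signals lie near the floor. The median difference of all genes stayed between -0.02 and 0.00. Same-numbered arrays had correlations of deviations from the group means of 0.14, 0.02 and 0.11, and differently numbered arrays had -0.22 to 0.10. These few overlapping values cannot decide whether replicate numbers pair the samples, and the main fit did not pair them. With the replicate number as a block, 1826 genes passed, 975 higher and 851 lower. The list counts without cytokine-free replicate 3 were chosen after seeing the data. For arrays, signal over background sets the limit, and genes near background can be given only as bounds.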

Other observations

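Genes with symbols that start with H2-, after the major histocompatibility complex, were counted after their values were seen. Not all of them present peptides to T cells. Of 23 tested, 7 rose with cytokines and 0 fell, against 8.38% and 7.37% of all genes, at a median of 0.10. Among the rises, H2-Ab1, H2-M3 and H2-Oa were not detected on any array without cytokines. They were at least 1.71-fold, 1.53-fold and 1.15-fold higher with them. H2-Eb1, a class II beta chain, had 7.47, 7.32 and 7.37 with cytokines, against 5.92, 6.17 and 6.01 without, and rose by 1.35 ± 0.17 (limma, adjusted p = 2.52e-06). H2-D1, a classical class I chain, had 7.43, 7.52 and 7.42 with cytokines, against 6.64, 6.14 and 6.89 without, and rose by 0.90 ± 0.19. H2-M5, a class Ib gene, rose by 1.55 ± 0.24. The groups did not overlap for any of these 3 genes. The call for H2-DMa (0.76 ± 0.19) was lost without cytokine-free replicate 3 (0.61).

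Among the Krüppel-like factors, counted in the same way, 4 of 14 rose and 3 fell, against 8.38% and 7.37% of all genes. Beside Klf4 and Klf5, Klf3 rose by 0.85 ± 0.20, while Klf7 (-0.71 ± 0.15) and Klf13 (-0.69 ± 0.17) were lower, and the call for Klf13 was lost without cytokine-free replicate 1 (-0.58). Of 19 Hox genes, which pattern the body axis, 2 rose, Hoxa5 and Hoxa7 (0.56 ± 0.14), against 8.38% of all genes, so the count is near the background. Hoxa5 had 6.26, 5.19 and 6.11 with cytokines, against 4.54, 4.59 and 4.66 without, where it was not detected on any array, and it was at least 1.92-fold higher with cytokines. Both Hox genes lost their call in the authors' normalized table.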
